A study of Mus musculus with 11 samples.

Results

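Semaphorins, Slits, netrins and ephrins are guidance cues, secreted or membrane-bound proteins that attract or repel migrating cells and growing axons and vessels. Every gene on the array whose annotation symbol names a class 3 to 7 semaphorin, a plexin, a Slit, a Robo, a netrin, an Unc5 receptor, an ephrin or an Eph receptor was taken, whatever its level, and 66 of 18193 measured genes met that rule. They comprised 20 semaphorins, 10 plexins, 3 Slits, 4 Robos, 4 netrins, 4 Unc5 receptors, 8 ephrins and 13 Eph receptors. Among the plexins counted here is Plxna4os1, a transcript of the strand opposite Plxna4, whose symbol meets the same rule. Each gene was read from the probe set (the group of probes for 1 transcript) with the highest mean over all arrays, from 141 probe sets in all. Ephb2 had no probe set with a single symbol and was not analysed here.

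Semaphorins bind plexins, with neuropilins as co-receptors for most class 3 members, Slits bind Robo receptors, netrins bind Unc5 and DCC family receptors, and ephrins bind Eph receptors on a neighbouring cell. In bone, Sema3a from osteoblast lineage and nerve cells protects bone mass, Sema4d from osteoclasts restrains osteoblasts through Plxnb1, and Efnb2 on osteoclasts signals to and from Ephb4 on osteoblasts. In vessels, Robo4, Plxnd1 and Unc5b are receptors of endothelial cells.

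RNA was measured on 11 arrays of 6 populations sorted from mice, 2 of each except for a single one of Nes+ BMSCs, to ask how skeletal stem cells of the periosteum and of the bone marrow differ from each other and from control cells. P-SSCs were CD45-CD31-Ter119-CD105+CD140a+ Mx1+Ocn- cells of the periosteum of Mx1-Cre, Rosa-Tomato, Osteocalcin-GFP mice. BM-SSCs were Mx1+Nes+ cells of the same surface gate from the marrow of Mx1-Cre, Rosa-Tomato, Nestin-GFP mice. In these C57BL/6 background lines an interferon-inducible Mx1 promoter drives Cre, the mice were irradiated with 9.5 Gy at 4 weeks of age and given wild-type marrow, and 6 to 8 weeks later Cre was induced with 25 mg/kg pIpC every other day for 10 days. Nes+ BMSCs (Mx1+/-) had the BM-SSC surface gate without a choice on Mx1, and their 1 array is described with no test. CD51+ BMSCs were CD45-CD31-Ter119- CD51+ marrow cells by their titles, to which the study's text adds CD105 and CD140a, Osx+ cells were CD45-CD31-Ter119- cells that carry the Osterix reporter and are called osteolineage precursors, and CD45+ cells were hematopoietic marrow cells. For Osx+ cells the labels give periosteal tissue as the source. For Nes+ BMSCs they give periosteal tissue in 1 field and marrow in the title, and that difference could not be settled. Cells of several male and female mice were pooled for a sort. The study's methods call the arrays of a population biological repeats, and the labels do not say whether the mice or sorts were separate.

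Array 2 of P-SSCs and array 2 of BM-SSCs stood apart. Over the 66 genes the 2 arrays of a population correlated at r = 0.260 for P-SSCs and 0.445 for BM-SSCs, against 0.970 for Osx+ cells, 0.992 for CD51+ BMSCs and 0.987 for CD45+ cells. Of the 66 genes, 36 differed by over 1 on the log2 scale between the P-SSC arrays and 42 between the BM-SSC arrays, against 3, 0 and 0 in the same order of the other populations. On array 2 of P-SSCs 17 of these genes were lower and 19 higher than on array 1, and the β-actin 3' probe set read 7.81 there and 12.78 on array 2 of BM-SSCs, against 13.23 to 14.25 on the other 9 arrays. Both arrays of these populations are therefore printed for the genes described in full, and differences of P-SSCs or BM-SSCs that passed and are printed are followed by their value without the 2 arrays. Because all populations share 1 estimate of the spread, leaving them out also changes the p-values of the other comparisons.

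**Figure D1:**
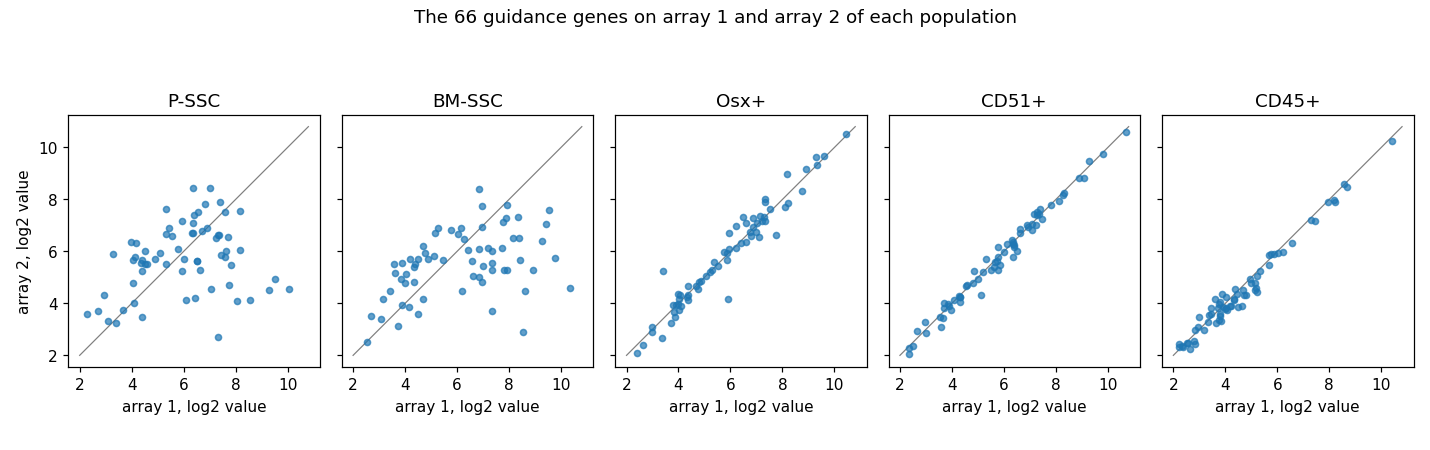
Level of each of the 66 guidance genes (1 point a gene) on array 1 (horizontal axis, log2 value) and array 2 (vertical axis, log2 value) of each population with 2 arrays; the line marks equal values. Points lie along the line for Osx+, CD51+ and CD45+ cells (r = 0.970, 0.992 and 0.987) and scatter for P-SSCs and BM-SSCs (r = 0.260 and 0.445).

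The markers of the sorts were read beside these genes. Ptprc, which encodes CD45, read 12.06 and 12.05 in CD45+ cells, 10.23 and 10.17 in CD51+ BMSCs although these were gated as CD45-, and 2.42 to 7.42 on the other 7 arrays. Over 17 blood genes the median log2 level was 12.06 and 12.05 in CD45+ cells, 10.23 and 10.37 in CD51+ BMSCs and 3.71 to 7.56 elsewhere. Over 10 cartilage genes, Col2a1 and Acan among them, it was 13.44 and 13.42 in Osx+ cells, 9.55 and 9.86 in CD51+ BMSCs and 3.41 to 7.95 elsewhere. Sp7, which encodes Osterix, was highest in Osx+ cells (8.93 and 8.58), and Nes, which encodes nestin, read 6.17 and 7.08 in BM-SSCs, 7.41 in Nes+ BMSCs and 6.94 and 7.42 in P-SSCs. In such bulk samples a larger share of a cell type and more RNA per cell cannot be told apart.

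More guidance genes were higher than lower in each stromal and skeletal population against CD45+ cells, and those that passed as lower included Sema4a, Sema4d, Sema4b and Plxnc1. A gene passed at an adjusted p under 0.05 (limma, Benjamini-Hochberg adjustment over all 45037 probe sets). Of the 66 genes, 19 passed in Osx+ cells against CD45+ cells, 17 of them higher, where 12.0% of all 18193 genes passed, 4.91% as higher and 7.05% as lower. In P-SSCs 17 passed, 13 of them higher, against a background of 12.5%, made up of 3.09% higher and 9.39% lower. In BM-SSCs 12 passed, 8 of them higher, against 11.0% (2.94% higher, 8.02% lower), and in CD51+ BMSCs 10 passed, 8 of them higher, against 7.91% (4.25% higher, 3.66% lower). Quantile normalization of the deposited values changed the higher and lower counts to 7 and 2 in Osx+ cells and in each SSC population, and centring each array on its median changed them to 6 and 4 in P-SSCs and 5 and 4 in BM-SSCs. Over the 66 genes the median log2 difference from CD45+ cells was 0.65 for Osx+ cells, 0.42 for CD51+ BMSCs, 1.06 for BM-SSCs and 1.54 for P-SSCs, and in the same order 51, 47, 59 and 59 of the 66 means were above CD45+ cells. After each array was centred on its median, 48, 46, 55 and 57 of the means were above CD45+ cells, in that order. The medians of the SSC arrays (4.53 to 4.94) were above those of the CD45+ arrays (4.43). No share of all genes stands beside these counts, so they are not read as particular to guidance genes. The same CD45+ arrays enter all 4 comparisons.

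**Figure D2:**
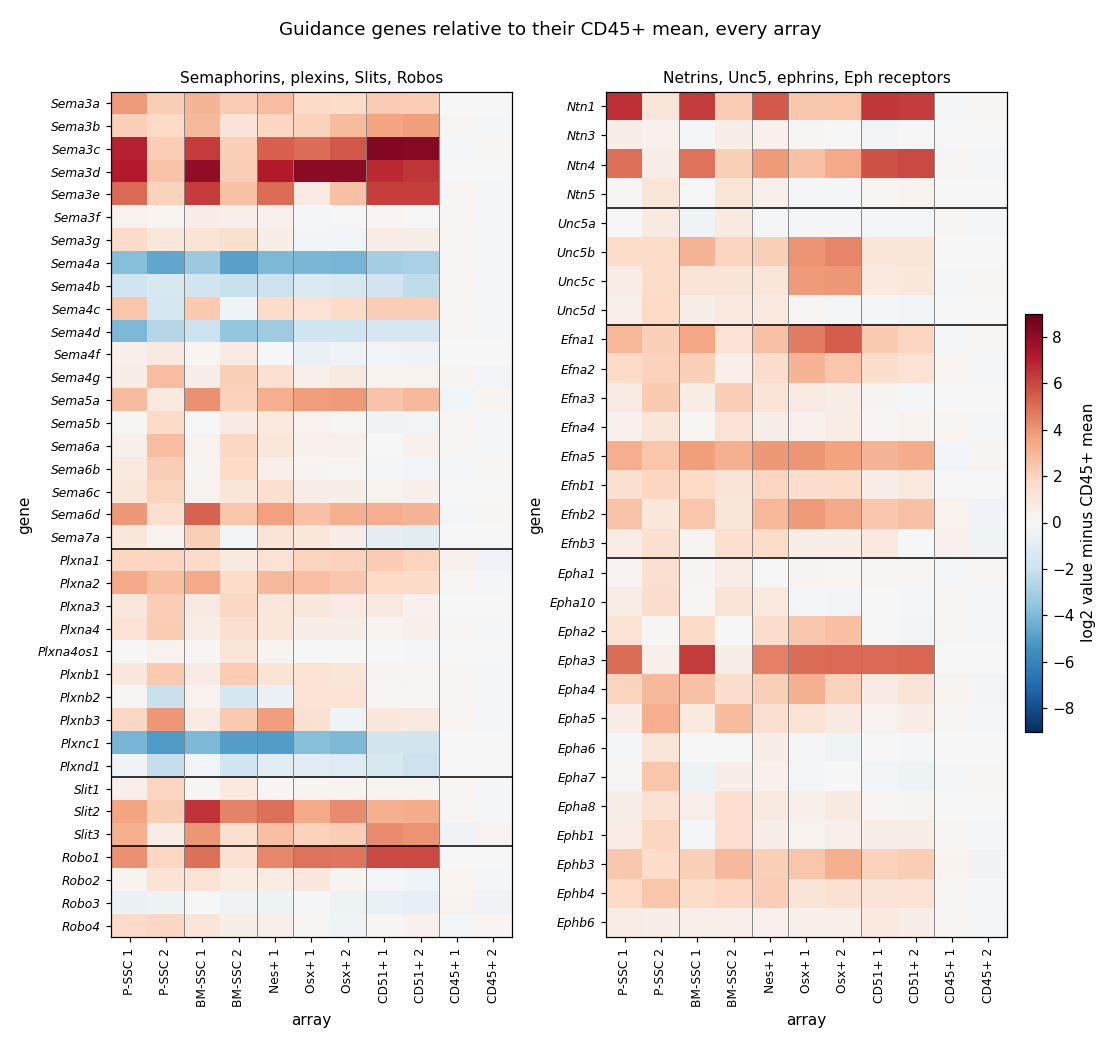
Log2 value of each of the 66 guidance genes (rows, by family) on each of the 11 arrays (columns) minus that gene's mean on the 2 CD45+ arrays, from blue (lower) to red (higher). Sema3c, Sema3d, Ntn1 and Epha3 are strongly red on array 1 and pale on array 2 of P-SSCs and BM-SSCs, while Sema4a and Plxnc1 are blue in every population outside CD45+ cells.

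How many genes passed changed when 1 array was left out of the shared fit, which also leaves fewer residual degrees of freedom. For Osx+, CD51+ and CD45+ cells the count was alike whichever of their 2 arrays was left out. This held also where the population was not one of those compared. For Osx+ against CD45+ cells the count was 6 or 7 when an array of either population was left out, 9 without either CD51+ array, 20 without either BM-SSC array and 24 without either P-SSC array. For CD51+ against CD45+ cells it was 0 without any array of either population, 2 without either Osx+ array and 19 without any P-SSC or BM-SSC array. For P-SSCs against CD45+ cells it was 1 without either CD45+ array, 5 without either CD51+ array, 7 without either Osx+ array, 23 without either BM-SSC array, 40 without P-SSC array 1 and 16 without P-SSC array 2, and for BM-SSCs the corresponding counts were 1 and 2, 5, 6, 13 and 17 without BM-SSC array 1 and 2, and 23 without either P-SSC array. Without array 2 of both SSC populations, 44 genes passed for Osx+ cells, 36 for CD51+ BMSCs, 41 for BM-SSCs and 44 for P-SSCs, where 48.8%, 43.2%, 44.2% and 55.3% of all genes passed. The 66 passes found over the 10 comparisons of the 5 populations with 2 arrays were all kept there. Of these 66, 8 passed whichever single array was left out: Unc5b, Unc5c, Efna1, Efna5, Sema4a and Plxnc1 in Osx+ cells and Plxnc1 in P-SSCs and BM-SSCs, all against CD45+ cells.

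**Figure D3:**
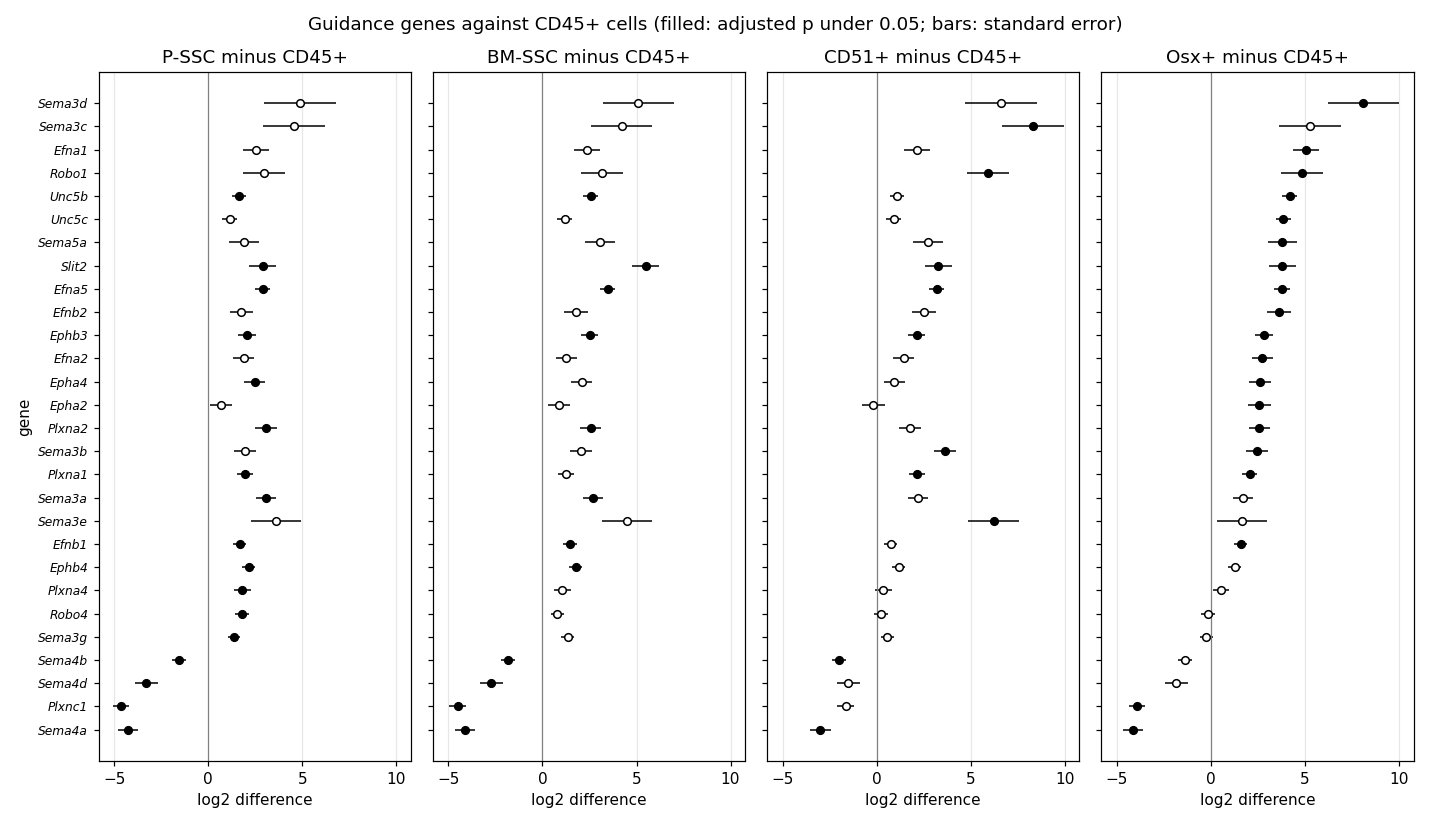
Log2 difference from CD45+ cells (horizontal axis, mean with its standard error) for the 28 guidance genes that passed in at least 1 of these 4 comparisons, in P-SSCs, BM-SSCs, CD51+ BMSCs and Osx+ cells; filled points passed at an adjusted p under 0.05. Sema3d lies farthest right in Osx+ cells (8.12) and Sema3c in CD51+ BMSCs (8.32), and Plxnc1 lies left of 0 in every panel.

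The class 3 semaphorins, which are secreted, held the widest differences of all 66 genes, and different members led in different populations. Sema3d read 10.45 and 10.50 in Osx+ cells, 9.08 and 8.82 in CD51+ BMSCs and 2.39 and 2.32 in CD45+ cells, with 9.48 in Nes+ BMSCs. In P-SSCs it read 9.52 and 4.93 and in BM-SSCs 10.33 and 4.57, so that array 1 was near the Osx+ level and array 2 far below it, yet above CD45+ cells. It passed in Osx+ cells (difference 8.12, SE 1.91, adjusted p = 0.0375), which was the largest difference there, and differed by 6.60 in CD51+ BMSCs (adjusted p = 0.103).

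Sema3c, needed for the outflow tract of the heart, was highest in CD51+ BMSCs. It read 10.69 and 10.61 there, 7.34 and 7.89 in Osx+ cells, 8.60 and 4.47 in BM-SSCs, 9.27 and 4.51 in P-SSCs, 7.71 in Nes+ BMSCs and 2.22 and 2.43 in CD45+ cells. No array of CD51+ BMSCs overlapped those of another population, and the gene passed there against CD45+ cells (difference 8.32, SE 1.64, adjusted p = 0.0284). Other cell-type genes were also high in CD51+ BMSCs: 8 of 10 skeletal muscle genes and 6 of 10 fibroblast and periosteum genes passed as higher than in CD45+ cells, and 4 and 1 passed as higher than in Osx+ cells. The muscle genes summed to 2891 and 5670 on the linear scale in CD51+ BMSCs and to 180 to 692 on the other 9 arrays. The fibroblast genes summed to 68216 and 75945 in CD51+ BMSCs, 31206 and 35040 in Osx+ cells and 846 and 919 in CD45+ cells. They summed to 60995 and 713 in P-SSCs, 61384 and 20058 in BM-SSCs and 52214 in Nes+ BMSCs, so high fibroblast sums were not particular to CD51+ BMSCs. The part of these muscle and fibroblast genes in the CD51+ values of Sema3c, Sema3e, Slit3, Ntn1, Ntn4 and Robo1 was not tested.

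Sema3e, the ligand of Plxnd1, read 8.89 and 8.83 in CD51+ BMSCs, 3.39 and 5.24 in Osx+ cells, 8.93 and 5.29 in BM-SSCs, 7.75 and 4.71 in P-SSCs, 7.66 in Nes+ BMSCs and 2.82 and 2.45 in CD45+ cells. It passed in CD51+ BMSCs against CD45+ cells (difference 6.22, SE 1.34, adjusted p = 0.0381). The difference from Osx+ cells of 4.55 did not pass (adjusted p = 0.205), although the arrays did not overlap. Without the 2 SSC arrays that stood apart it passed there, at an adjusted p of 0.00047.

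Sema3a, which restrains osteoclasts and guides sensory nerves into bone, was the semaphorin that passed as higher in both SSC populations. It read 6.83 and 6.08 in BM-SSCs, 7.62 and 6.01 in P-SSCs, 6.57 in Nes+ BMSCs, 6.02 and 5.96 in CD51+ BMSCs, 5.51 and 5.45 in Osx+ cells and 3.72 and 3.81 in CD45+ cells. The P-SSC and BM-SSC arrays overlapped each other, and all were above Osx+ cells, though P-SSC array 2 lay between the CD51+ arrays. The gene passed against CD45+ cells in P-SSCs (difference 3.05, SE 0.53, adjusted p = 0.0152) and BM-SSCs (2.69, adjusted p = 0.024), and without the 2 arrays the differences were 3.85 and 3.07. In CD51+ BMSCs and Osx+ cells the differences of 2.23 and 1.72 did not pass (adjusted p = 0.0555 and 0.103).

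Of the other class 3 members, Sema3b was highest in CD51+ BMSCs (7.41 and 7.64) and lowest in CD45+ cells (3.98 and 3.79), and passed against CD45+ cells in CD51+ BMSCs (3.64, adjusted p = 0.0146) and Osx+ cells (2.45, adjusted p = 0.0407). Sema3g, known from arterial endothelium, read 5.45 and 5.68 in BM-SSCs, 5.92 and 5.25 in P-SSCs, 4.73 in Nes+ BMSCs, 4.82 and 4.79 in CD51+ BMSCs, 3.9999 and 3.99 in Osx+ cells and 4.35 and 4.11 in CD45+ cells. It passed in P-SSCs against CD45+ cells (1.36, adjusted p = 0.0464) and the 1.34 in BM-SSCs did not (adjusted p = 0.0527), and without the 2 arrays they were 1.69 and 1.22. Sema3f stayed between 7.16 and 7.94 and passed nowhere with all 11 arrays in the fit.

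The transmembrane semaphorins Sema4a, Sema4b and Sema4d were highest in CD45+ cells. Sema4a, an immune semaphorin of dendritic and T cells, read 10.43 and 10.23 in CD45+ cells, 7.27 and 7.42 in CD51+ BMSCs, 6.99 and 5.43 in BM-SSCs, 6.498 and 5.65 in P-SSCs, 6.29 in Nes+ BMSCs and 6.23 and 6.14 in Osx+ cells. The CD45+ arrays were above all others and the CD51+ arrays came next. The gene passed as lower against CD45+ cells in all 4 populations, by -4.26 in P-SSCs, -4.12 in BM-SSCs, -4.15 in Osx+ cells and -2.99 in CD51+ BMSCs (adjusted p = 0.00444, 0.00519, 0.00314 and 0.0202), and by -3.83 and -3.34 in the SSC populations without the 2 arrays.

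Sema4d, which T cells and osteoclasts make, read 8.66 and 8.46 in CD45+ cells, 7.07 and 7.06 in CD51+ BMSCs, 6.74 and 6.74 in Osx+ cells, 6.61 and 5.07 in BM-SSCs, 4.52 and 6.03 in P-SSCs and 5.34 in Nes+ BMSCs. Against CD45+ cells it passed in P-SSCs (-3.29, adjusted p = 0.0193) and BM-SSCs (-2.72, adjusted p = 0.0382), and without the 2 arrays the differences were -4.05 and -1.95. With the mean of all its probe sets neither difference passed. Sema4b passed as lower in P-SSCs (-1.56), BM-SSCs (-1.83) and CD51+ BMSCs (-2.00), at adjusted p = 0.0364, 0.0226 and 0.0198, and its 2 CD45+ arrays (8.22 and 7.92) were above the range of 5.77 to 6.79 on the other 9. The SSC differences of Sema4b were -1.76 and -1.67 without the 2 arrays. After quantile normalization none of these passed (adjusted p up to 0.645), and with the mean of all its probe sets the P-SSC difference did not pass.

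Plxnc1, the receptor of Sema7a, was also highest in CD45+ cells, and CD51+ BMSCs lay between them and the other stromal populations. It read 8.56 and 8.59 in CD45+ cells, 6.93 and 6.92 in CD51+ BMSCs, 4.74 and 4.55 in Osx+ cells, 4.51 and 3.61 in BM-SSCs, 4.41 and 3.48 in P-SSCs and 3.57 in Nes+ BMSCs. The CD51+ arrays overlapped no other population. Against CD45+ cells the gene passed as lower in P-SSCs (-4.63, adjusted p = 0.00163), BM-SSCs (-4.52, adjusted p = 0.00182) and Osx+ cells (-3.93, adjusted p = 0.00157), and the -1.65 in CD51+ BMSCs did not pass (adjusted p = 0.0762). The SSC differences were -4.16 and -4.07 without the 2 arrays.

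Against CD51+ BMSCs, Plxnc1 was the only one of the 66 genes that passed in the SSC populations. The differences were -2.98 in P-SSCs (SE 0.44, adjusted p = 0.037) and -2.87 in BM-SSCs (adjusted p = 0.0425), where 0.841% and 0.830% of all genes passed, and without the 2 arrays they were -2.51 and -2.42. It also passed as higher in CD51+ BMSCs than in Osx+ cells (2.28, adjusted p = 0.0444). These last 3 passes were lost when any array of the CD51+, Osx+ or CD45+ cells was left out and, for the SSC populations, without their own array 2, with adjusted p up to 0.399, 0.437 and 0.341, and all 3 missed the threshold after quantile normalization (adjusted p = 0.161, 0.224 and 0.393). The BM-SSC pass against CD51+ BMSCs held in 1 of the 7 other alternatives and the other 2 in 4 of 7. Of the 5 other Plxnc1 probe sets, 1 passed the same way against CD51+ BMSCs in each SSC population, and 1 went the opposite way in P-SSCs (1.19). Blood genes were also higher in CD51+ BMSCs, where 13 of 17 passed as higher than in Osx+ cells. The 17 summed to 64317 and 66352 on the linear scale in CD51+ BMSCs and 532 and 2816 in Osx+ cells. They summed to 21720 and 20344 in BM-SSCs, 13508 and 6008 in P-SSCs and 13134 in Nes+ BMSCs. The Plxnc1 readings of Osx+ cells, BM-SSCs, P-SSCs and Nes+ BMSCs lay near or below the medians of their arrays (4.48 to 4.94). The part of blood cells in the Sema4a and Plxnc1 results was not tested.

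**Figure D4:**
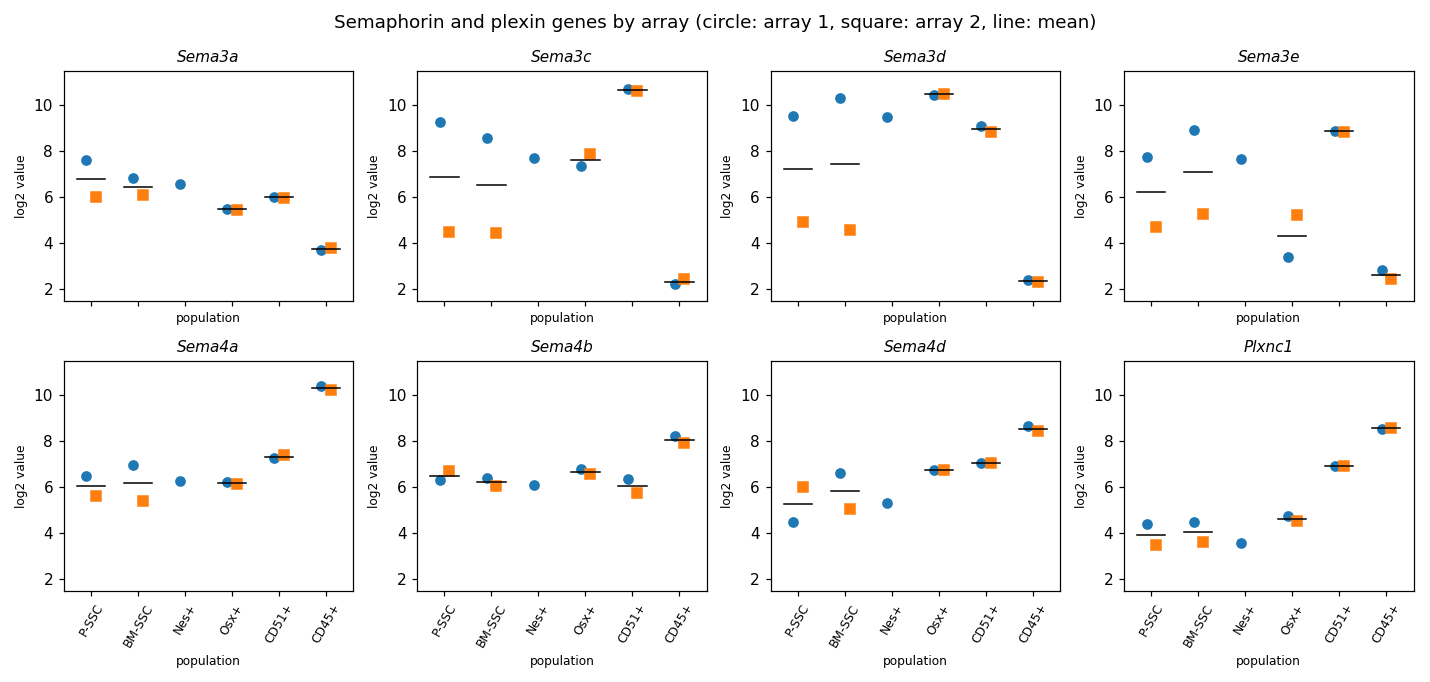
Log2 value (vertical axis) of 7 semaphorins and Plxnc1 on every array of the 6 populations (horizontal axis), with array 1 as a circle, array 2 as a square and the population mean as a line. Sema3c and Sema3e have their highest mean in CD51+ BMSCs, Sema3d in Osx+ cells, and Sema4a, Sema4b, Sema4d and Plxnc1 in CD45+ cells.

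Upstream of its start, Plxnc1 on chromosome 10 holds the sequence below, shown because it is the gene that passed between CD51+ BMSCs and both SSC populations. It is the run of 250 bases before the RefSeq start at chr10:94944846-94945095 of GRCm38.p6, minus strand, with the GC box letters GGGCGG, read on both strands, in capitals.
Plxnc1: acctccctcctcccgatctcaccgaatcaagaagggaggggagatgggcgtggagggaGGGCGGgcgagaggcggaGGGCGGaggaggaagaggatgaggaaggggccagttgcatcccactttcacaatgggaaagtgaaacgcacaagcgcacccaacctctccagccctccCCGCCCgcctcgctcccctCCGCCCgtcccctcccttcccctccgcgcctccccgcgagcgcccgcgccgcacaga
It holds these letters 4 times, and at least 1 copy stood in 51 of 72 windows of the guidance genes (70.8%) and in 48.4% of the windows of all genes on the array.

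Of the remaining semaphorins, Sema5a passed in Osx+ cells against CD45+ cells (3.82, adjusted p = 0.0232), with 7.003 and 7.09 against 2.98 and 3.48. Sema6d read 9.27 and 6.40 in BM-SSCs, 7.80 and 5.46 in P-SSCs, 7.64 in Nes+ BMSCs, 7.22 and 7.01 in CD51+ BMSCs, 6.60 and 7.11 in Osx+ cells and 3.80 and 4.07 in CD45+ cells. All arrays outside CD45+ cells were above it, and the largest difference (3.901 in BM-SSCs) did not pass (adjusted p = 0.0552). Sema7a, a membrane-anchored semaphorin, read 6.39 and 6.24 in CD51+ BMSCs and 7.04 to 9.44 on the other 9 arrays, and passed in none of the 10 comparisons with all arrays and in 9 of them without the 2 SSC arrays.

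Among the plexins, Plxna1, Plxna2 and Plxna4 passed as higher. Plxna1 read 6.85 and 6.93 in Osx+ cells, 7.09 and 6.81 in CD51+ BMSCs, 6.56 and 5.63 in BM-SSCs, 6.72 and 6.78 in P-SSCs, 6.13 in Nes+ BMSCs and 5.21 and 4.44 in CD45+ cells, and passed against CD45+ cells in Osx+ cells, CD51+ BMSCs and P-SSCs (2.06, 2.13 and 1.93, adjusted p = 0.022, 0.0289 and 0.0315). Plxna2 passed in P-SSCs (3.07, adjusted p = 0.0185), Osx+ cells (2.58, adjusted p = 0.03) and BM-SSCs (2.55, adjusted p = 0.0358), with 7.31 and 6.65 in P-SSCs against 4.07 and 3.73 in CD45+ cells. Without the 2 arrays the P-SSC difference of Plxna1 was 1.898, and those of Plxna2 were 3.41 in P-SSCs and 3.44 in BM-SSCs. Plxna4, a receptor for class 3 semaphorins, passed in P-SSCs (1.80, adjusted p = 0.0447), where array 2 (6.58) exceeded array 1 (5.54), and the difference without array 2 was 1.28.

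Plxnb1, the receptor of Sema4d, read 8.45 and 8.42 on array 2 of P-SSCs and BM-SSCs and 5.96 to 7.34 on the other 9 arrays. It passed nowhere with all arrays in the fit. Plxnb2 was highest in Osx+ cells (9.31 and 9.32) and lowest on the same 2 arrays (6.04 and 6.51). Plxnd1, a receptor of vessels and the immune system, was highest in CD45+ cells (7.95 and 7.91) and its difference of -1.68 in CD51+ BMSCs did not pass (adjusted p = 0.277).

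Slit2 was the Slit that passed in all 4 populations against CD45+ cells. It read 9.55 and 7.58 in BM-SSCs, 8.06 in Nes+ BMSCs, 6.47 and 7.33 in Osx+ cells, 6.31 and 6.42 in CD51+ BMSCs, 6.65 and 5.28 in P-SSCs and 3.19 and 2.98 in CD45+ cells. Both BM-SSC arrays were above every array of the other populations with 2 arrays. The differences from CD45+ cells were 5.48 in BM-SSCs (SE 0.71, adjusted p = 0.00509), 3.82 in Osx+ cells (adjusted p = 0.0151), 3.28 in CD51+ BMSCs (adjusted p = 0.0395) and 2.88 in P-SSCs (adjusted p = 0.0456), and without the 2 arrays 6.47 in BM-SSCs and 3.56 in P-SSCs.

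Between P-SSCs and BM-SSCs Slit2 differed by -2.60 and did not pass. Slit3, a Slit that osteoblasts make and that acts on bone vessels, read 8.12 and 7.93 in CD51+ BMSCs, 7.82 and 5.29 in BM-SSCs, 7.06 and 4.54 in P-SSCs, 6.60 in Nes+ BMSCs, 5.94 and 6.09 in Osx+ cells and 3.59 and 4.16 in CD45+ cells. The CD51+ arrays were above all others, and the difference from CD45+ cells of 4.15 missed the threshold (adjusted p = 0.0504). Slit1 passed nowhere.

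Robo1, the widely expressed Slit receptor, read 2.34 and 2.35 in CD45+ cells. It read 8.31 and 8.25 in CD51+ BMSCs, 7.20 and 7.16 in Osx+ cells, 6.68 in Nes+ BMSCs, 6.43 and 4.20 in P-SSCs and 7.33 and 3.70 in BM-SSCs. It passed in CD51+ BMSCs (5.93, SE 1.12, adjusted p = 0.0243) and Osx+ cells (4.84, adjusted p = 0.0363), while its other 2 probe sets differed by 0.08 and 0.06 in CD51+ BMSCs. In P-SSCs and BM-SSCs the differences of 2.97 and 3.17 did not pass, and without the 2 arrays they were 4.08 and 4.98 and passed.

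Robo4, the Robo of endothelial cells, showed another pattern. It read 4.70 and 4.15 in BM-SSCs, 5.34 and 5.50 in P-SSCs, 4.07 in Nes+ BMSCs, 3.71 and 3.999 in CD51+ BMSCs, 3.71 and 3.24 in Osx+ cells and 3.45 and 3.81 in CD45+ cells. Both P-SSC arrays were above all others, array 2 included, and the gene passed there against CD45+ cells (1.79, SE 0.36, adjusted p = 0.0234) and not against Osx+ cells (1.94, adjusted p = 0.0703). The difference from CD45+ cells was 1.71 without the 2 arrays. Its readings lay around the array medians of 4.43 to 4.94, and the filter on dim probe sets removed it. Some endothelial genes were, like Robo4 and Sema3g, higher in P-SSCs than in CD45+ cells, where 6 of 17 passed as higher. The 17 summed to 1438 and 1007 in BM-SSCs and 2513 and 770 in P-SSCs. In Nes+ BMSCs they summed to 672, and in the other populations to 424 to 861. The P-SSC sum of 770, within the range of the other populations, and the Robo4 reading of 5.50 are both from array 2. That array stood apart and had a median of 4.94. Pecam1, the gene of the CD31 used to gate endothelial cells out, read 6.34 and 4.80 in P-SSCs against 6.64 and 6.75 in CD45+ cells and 3.23 and 3.39 in Osx+ cells. The part of endothelial cells in these results was not tested. Robo2 and Robo3 read 4.49 or less on every array.

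The netrins that were high in stroma did not pass against CD45+ cells. Ntn1, the founding netrin, read 9.83 and 9.76 in CD51+ BMSCs, 9.001 in Nes+ BMSCs, 5.87 and 5.94 in Osx+ cells and 3.39 and 3.54 in CD45+ cells, with 10.07 and 4.57 in P-SSCs and 9.78 and 5.75 in BM-SSCs. Array 1 of both SSC populations was level with CD51+ BMSCs and array 2 was below Osx+ cells. The largest difference, 6.33 in CD51+ BMSCs, had an SE of 1.77 and an adjusted p of 0.0919. Without the 2 arrays it passed, and CD51+ BMSCs also passed against Osx+ cells (difference 3.89).

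Ntn4, a netrin of basement membranes, read 9.29 and 9.49 in CD51+ BMSCs, 7.38 in Nes+ BMSCs, 6.22 and 6.99 in Osx+ cells and 3.76 and 3.36 in CD45+ cells, with 8.54 and 4.13 in P-SSCs and 8.43 and 5.68 in BM-SSCs. Its difference of 5.83 in CD51+ BMSCs had an adjusted p of 0.0526. Ntn3 and Ntn5 stayed within 2.66 to 5.52 and passed nowhere with all arrays in the fit.

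The netrin receptors Unc5b and Unc5c had their highest readings in Osx+ cells. Unc5b read 9.29 and 9.64 in Osx+ cells, 8.35 and 7.31 in BM-SSCs, 7.43 in Nes+ BMSCs, 6.36 and 6.36 in CD51+ BMSCs, 6.91 and 6.90 in P-SSCs and 5.32 and 5.23 in CD45+ cells. Unc5c read 9.59 and 9.68 in Osx+ cells, 6.95 and 6.95 in BM-SSCs, 6.40 and 7.40 in P-SSCs, 6.84 in Nes+ BMSCs, 6.63 and 6.72 in CD51+ BMSCs and 5.66 and 5.88 in CD45+ cells. For both genes the Osx+ arrays were above all other 9, array 2 of the SSC populations included.

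Against CD45+ cells both passed in Osx+ cells, Unc5b with the lowest adjusted p of all 66 genes (4.19, SE 0.40, adjusted p = 0.000787) and Unc5c next (3.86, SE 0.38, adjusted p = 0.000997). Unc5b also passed against CD45+ cells in BM-SSCs (2.56, and 3.08 without the 2 arrays) and P-SSCs (1.63 with and without them). Against CD51+ BMSCs, where 3.19% of all genes passed and 3 of the 66 did, Osx+ cells were higher in both, with CD51+ minus Osx+ differences of -3.10 for Unc5b (adjusted p = 0.00865) and -2.96 for Unc5c (adjusted p = 0.0091). They were the 2 of 66 genes that passed in P-SSCs against Osx+ cells (Unc5c -2.73, adjusted p = 0.0271; Unc5b -2.56, adjusted p = 0.0375), where 1.08% of all genes passed. In BM-SSCs against Osx+ cells Unc5c alone passed (-2.69, adjusted p = 0.0314), where 0.824% of all genes did, and the -1.63 of Unc5b did not pass. Without the 2 arrays the differences from Osx+ cells were -3.23 for Unc5c and -2.56 for Unc5b in P-SSCs, and -2.69 and -1.11 in BM-SSCs.

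The passes of Unc5b and Unc5c against CD51+ BMSCs were lost when any array of these populations was left out, with adjusted p up to 0.116 and 0.124. Those against the SSC populations were lost without any Osx+, CD51+ or CD45+ array, and for Unc5b in P-SSCs and Unc5c in BM-SSCs also without array 2 of that population, with adjusted p up to 0.402. After quantile normalization Unc5b still passed in Osx+ cells against CD45+ cells and CD51+ BMSCs, while Unc5c missed (adjusted p = 0.0621 and 0.317), as did both genes against the SSC populations. The other probe sets of both genes moved the same way against CD45+ cells and CD51+ BMSCs. For the passes of the SSC populations against Osx+ cells they also moved the same way, but none of them passed. Cartilage and osteoblast genes were also high in Osx+ cells. All 10 cartilage genes passed as higher there than in CD45+ cells, 6 than in CD51+ BMSCs and 7 than in each SSC population. Of 8 measured osteoblast genes, 8, 2 and 1 did in the same order. The cartilage median was 9.55 and 9.86 in CD51+ BMSCs, 5.94 and 4.92 in P-SSCs and 7.95 and 5.74 in BM-SSCs. The osteoblast median was 12.06 and 12.19 in Osx+ cells and 11.49 and 9.87 in BM-SSCs. It was 8.95 and 4.56 in P-SSCs and 8.32 and 8.53 in CD51+ BMSCs. The part of either list in the Unc5 results was not tested.

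The runs of 250 bases before the RefSeq starts of the pair are shown because both genes were highest in Osx+ cells (GRCm38.p6, with Unc5b at chr10:60831582-60831831, minus strand, and Unc5c at chr3:141465314-141465563, plus strand). Capitals mark the GC box letters GGGCGG, the Runx core letters TGTGGT and the Ets core letters GGAAGT, each read on both strands.
Unc5b: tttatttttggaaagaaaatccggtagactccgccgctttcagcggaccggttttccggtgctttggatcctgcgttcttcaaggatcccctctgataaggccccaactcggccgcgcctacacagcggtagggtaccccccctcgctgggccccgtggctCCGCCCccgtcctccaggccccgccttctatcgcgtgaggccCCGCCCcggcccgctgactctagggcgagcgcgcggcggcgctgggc
Unc5c: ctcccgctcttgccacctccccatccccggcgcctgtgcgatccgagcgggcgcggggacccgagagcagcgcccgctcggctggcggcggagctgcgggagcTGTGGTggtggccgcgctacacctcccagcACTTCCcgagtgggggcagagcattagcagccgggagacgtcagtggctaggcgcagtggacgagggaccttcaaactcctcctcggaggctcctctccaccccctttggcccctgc
The windows shared none of the 3 sets of letters: Unc5b held GGGCGG 2 times and Unc5c held TGTGGT and GGAAGT once each. TGTGGT stood in 12.5% of the 72 windows of the guidance genes and 11.7% of those of all genes on the array, and GGAAGT in 18.1% and 21.2%. A match is a description of letters and no binding was measured.

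**Figure D5:**
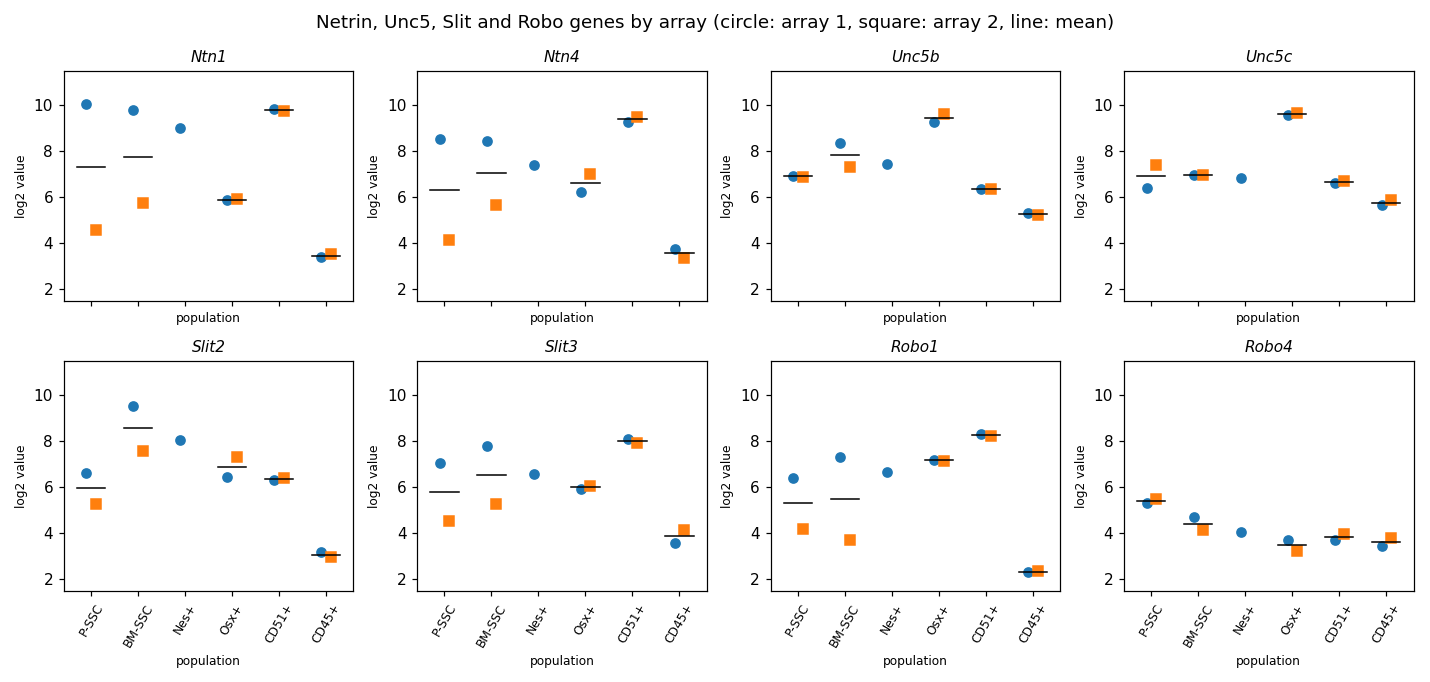
Log2 value (vertical axis) of Ntn1, Ntn4, Unc5b, Unc5c, Slit2, Slit3, Robo1 and Robo4 on every array of the 6 populations (horizontal axis), with array 1 as a circle, array 2 as a square and the population mean as a line. Unc5b and Unc5c are highest in Osx+ cells on both arrays, Robo4 in P-SSCs and Slit3 in CD51+ BMSCs, and Ntn1 and Ntn4 are high on array 1 and low on array 2 of the SSC populations.

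Of the 8 ephrins, 5 passed as higher in Osx+ cells than in CD45+ cells, where 4.91% of all genes passed as higher. All 8 differences were above 0 with a median of 2.18, against 51 of the 66 guidance genes with a median of 0.65, and the family as such was not tested. Efna1 read 8.16 and 8.99 in Osx+ cells, 6.96 and 4.83 in BM-SSCs, 6.504 and 5.63 in P-SSCs, 6.18 in Nes+ BMSCs, 5.86 and 5.48 in CD51+ BMSCs and 3.44 and 3.59 in CD45+ cells. The Osx+ arrays were above all others, and the gene passed there against CD45+ cells (5.06, SE 0.69, adjusted p = 0.00404). Against CD51+ BMSCs the difference of -2.90 coded as CD51+ minus Osx+ did not pass (adjusted p = 0.102).

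Efna5 was the ephrin shared by all 4 populations. It read 8.11 and 7.72 in Osx+ cells, 7.86 and 7.28 in BM-SSCs, 7.35 and 6.65 in P-SSCs, 7.16 and 7.45 in CD51+ BMSCs, 7.98 in Nes+ BMSCs and 3.86 and 4.37 in CD45+ cells, with array 2 of the SSC populations close to array 1. It passed against CD45+ cells in Osx+ cells (3.79, adjusted p = 0.00135), BM-SSCs (3.46, adjusted p = 0.00338), P-SSCs (2.88, adjusted p = 0.00682) and CD51+ BMSCs (3.19, adjusted p = 0.00699), while its second probe set differed by 0.34 in Osx+ cells. Without the 2 arrays the differences were 3.75 in BM-SSCs and 3.24 in P-SSCs.

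Efnb2, the arterial ephrin and partner of Ephb4, read 8.74 and 8.31 in Osx+ cells, 7.29 and 7.51 in CD51+ BMSCs, 7.35 and 5.999 in BM-SSCs, 7.43 and 5.85 in P-SSCs, 7.84 in Nes+ BMSCs and 5.17 and 4.59 in CD45+ cells. It passed in Osx+ cells (3.65, adjusted p = 0.0108). Efnb1, which patterns the skull sutures, passed in P-SSCs (1.67), Osx+ cells (1.60) and BM-SSCs (1.46), at adjusted p = 0.0287, 0.0305 and 0.0469, with 6.04 and 5.93 in CD45+ cells against 6.60 to 7.94 elsewhere, and by 1.42 and 1.77 in P-SSCs and BM-SSCs without the 2 arrays. Efna2 passed in Osx+ cells (2.75, adjusted p = 0.0201), and Efna3, Efna4 and Efnb3 passed nowhere with all arrays in the fit.

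Among the Eph receptors, Ephb3 passed against CD45+ cells in all 4 populations and Ephb4 in the SSC populations. Ephb3 read 7.33 and 8.02 in Osx+ cells, 6.95 and 7.74 in BM-SSCs, 7.26 and 6.505 in P-SSCs, 6.91 and 7.02 in CD51+ BMSCs, 7.01 in Nes+ BMSCs and 5.14 and 4.52 in CD45+ cells. The differences were 2.84 in Osx+ cells, 2.51 in BM-SSCs, 2.13 in CD51+ BMSCs and 2.05 in P-SSCs (adjusted p = 0.0084, 0.0183, 0.0391 and 0.0339), and without the 2 arrays 2.12 in BM-SSCs and 2.43 in P-SSCs.

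Ephb4, the venous Eph receptor and a receptor of osteoblasts, read 6.28 and 6.46 in BM-SSCs, 6.37 and 7.10 in P-SSCs, 6.83 in Nes+ BMSCs, 5.77 and 5.79 in CD51+ BMSCs, 5.75 and 5.98 in Osx+ cells and 4.67 and 4.52 in CD45+ cells. All 5 arrays of P-SSCs, BM-SSCs and Nes+ BMSCs, array 2 included, were above those of CD51+ BMSCs and Osx+ cells. The gene passed against CD45+ cells in P-SSCs (2.14, adjusted p = 0.0115) and BM-SSCs (1.77, adjusted p = 0.0226), and by 1.27 and 1.19 it did not pass in Osx+ cells and CD51+ BMSCs (adjusted p = 0.0659 and 0.106). Those of the SSC populations were 1.78 and 1.68 without the 2 arrays. The differences of P-SSCs and BM-SSCs from Osx+ cells did not pass with all arrays.

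Epha2 passed in Osx+ cells (2.58, adjusted p = 0.0352), with 8.90 and 9.18 against 6.58 and 6.33 in CD45+ cells and 6.40 and 6.17 in CD51+ BMSCs. Epha4 passed in Osx+ cells (2.62, adjusted p = 0.027) and P-SSCs (2.47, adjusted p = 0.0362, and 1.99 without array 2). Epha3 had the widest gap between arrays of the Eph receptors: it read 8.53 and 2.88 in BM-SSCs, 7.32 and 2.72 in P-SSCs, 6.80 in Nes+ BMSCs, 7.29 and 7.34 in Osx+ cells, 7.36 and 7.45 in CD51+ BMSCs and 2.22 and 2.32 in CD45+ cells. Its differences of 5.14 in CD51+ BMSCs and 5.05 in Osx+ cells did not pass (adjusted p = 0.208 and 0.18), and without array 2 of the SSC populations they did. Epha7 and Ephb6 passed nowhere with all arrays in the fit.

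P-SSCs and BM-SSCs did not differ in any of the 66 genes by limma with all arrays, where 0% of all genes passed and 3 of the 66 had an unadjusted p under 0.05. Without array 2 of each, 5 of 66 passed, all lower in P-SSCs, where 2.46% of all genes passed, with 1 array a population and a spread taken from the others. They were Slit2 (-2.91), Sema4d (-2.09), Unc5b (-1.44), Sema7a (-1.25) and Epha3 (-1.21). Over the 66 genes P-SSCs and BM-SSCs correlated at r = 0.933 between their arrays 1 and 0.808 between their arrays 2. The 2 arrays within a population correlated at 0.260 for P-SSCs and 0.445 for BM-SSCs, so the SSC arrays grouped by array number. The single Nes+ array correlated at r = 0.930 and 0.403 with arrays 1 and 2 of P-SSCs and 0.916 and 0.620 with those of BM-SSCs. It correlated at 0.811 to 0.824 with the CD51+ and Osx+ arrays and 0.210 and 0.219 with the CD45+ arrays. These values describe levels over genes that share a probe set on every array.

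In all, 28 of the 66 genes passed in at least 1 comparison and 38 in none. Of those 38, 28 passed in at least 1 comparison without the 2 SSC arrays and 10 passed under neither: Epha1, Epha6, Epha7, Efnb3, Ntn5, Plxna4os1, Sema5b, Sema6a, Slit1 and Unc5a. The 6 genes Epha6, Ephb6, Ntn3, Plxna4os1, Robo2 and Unc5d lay below the array's median on all 11 arrays, and 21 genes lay above it on all 11.

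The co-receptors and intracellular partners of these pathways were read from lists of 17 and 36 genes, of which 16 and 35 were measured. Among co-receptors, Flrt3, a binding partner of Robo1 and Unc5 receptors, passed as higher than in CD45+ cells in all 4 populations (3.20 in Osx+ cells, 2.30 in CD51+ BMSCs and 1.89 in each SSC population). Flrt2, of the same family, passed in CD51+ BMSCs (6.24, with 9.87 and 9.83 against 3.52 and 3.68). Nrp2, a co-receptor for class 3 semaphorins, passed in BM-SSCs (3.94), Rgma in P-SSCs and CD51+ BMSCs (2.41 and 2.58), and Nrp1 in none. Cd72, a receptor of Sema4d on B cells, passed as lower in Osx+ cells (-4.17), CD51+ BMSCs (-3.11) and BM-SSCs (-2.95), and Met as lower in P-SSCs, BM-SSCs and Osx+ cells. Without the 2 arrays Flrt3 differed by 1.77 in P-SSCs and 2.20 in BM-SSCs, Nrp2 by 5.22 in BM-SSCs, Rgma by 1.49 in P-SSCs and Cd72 by -2.89 in BM-SSCs.

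Of the 35 intracellular partners, 5 passed as higher and 2 as lower in Osx+ cells against CD45+ cells, 2 and 3 in each SSC population and 3 and 0 in CD51+ BMSCs. These shares of 20.0%, 14.3% and 8.57% stood beside 12.0% of all genes in Osx+ cells, 12.5% and 11.0% in P-SSCs and BM-SSCs and 7.91% in CD51+ BMSCs, so those of the SSC populations and CD51+ BMSCs were near the background. Arhgef12, which binds class B plexins, and Ngef, which acts below EphA receptors, passed as higher in all 4 populations, by 1.91 to 2.96 and by 2.82 to 4.31, and without the 2 arrays by 2.71 and 3.27 in P-SSCs and 2.19 and 3.82 in BM-SSCs. Tiam1 and Fes passed as lower in P-SSCs, BM-SSCs and Osx+ cells. The medians over all 35 were 0.12 for Osx+ cells, 0.21 for CD51+ BMSCs, 0.04 for BM-SSCs and 0.22 for P-SSCs.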

How the data were processed

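Deposited values were log2 expression values that the authors made from Affymetrix mouse array scans by RMA in Partek GS and R. RMA normally equalises quantiles between arrays, but the deposited arrays differ in median by 0.51 and in interquartile range (1.81 to 3.56). They name limma for comparisons, and versions are not given in the sources used here. Scanner files were not used. The number of arrays and the 2 SSC arrays that stand apart limit precision. Of all probe sets, 64 controls were left out and 45037 tested, with 34945 carrying 1 symbol, 932 several and 9160 none. Of the 66 symbols, 66 are RefSeq symbols.

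One limma model held a mean for each population and took in all 11 arrays (limma 3.58.1 in R 4.3.3, 5 residual and 2.65 prior degrees of freedom), and 10 pairs of populations were compared with Benjamini-Hochberg adjustment within each. The script was tested on simulated data. Genes named are those that passed (up to 5 per direction and comparison), those whose arrays did not overlap, and members known in bone or vessels. Members and lists were chosen with earlier results of these data known. Promoter windows, 250 bases before the start, came from RefSeq (GRCm38.p6) and covered 56 of 66 genes. Alternatives were quantile normalization, median centring, a filter on dim probe sets, a mean over probe sets, a fit of 2 populations alone, an array-number block, and left-out arrays.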

Additional observations from a re-analysis of the deposited data

How the results depend on the processing

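None of the 66 passes reversed its direction under any alternative. Of all 660 gene and comparison pairs, 94 changed sign without array 2 of the SSC populations, all in comparisons with P-SSCs or BM-SSCs, and 13 of these then passed, such as Epha3 in BM-SSCs against Osx+ cells (-1.61 to 1.22). Counts of passing genes are given in the order P-SSCs, BM-SSCs, CD51+ BMSCs and Osx+ cells against CD45+ cells, P-SSCs, BM-SSCs and CD51+ BMSCs against Osx+ cells, P-SSCs and BM-SSCs against CD51+ BMSCs, and P-SSCs against BM-SSCs. With all arrays they were 17, 12, 10, 19, 2, 1, 3, 1, 1 and 0. Without array 2 of P-SSCs and of BM-SSCs they were 44, 41, 36, 44, 26, 22, 28, 26, 21 and 5. Fitting only the 2 populations compared gave 0, 2, 38, 40, 0, 0, 25, 0, 0 and 0, and lost 32 of 66 passes. Quantile normalization of the deposited values, whose array medians span 0.51 on the log2 scale, gave 9, 9, 5, 9, 0, 0, 2, 0, 0 and 0 and lost 37, among them Unc5c in Osx+ against CD45+ cells and both Unc5 genes against the SSC populations. Centring each array on its median gave 10, 9, 8, 16, 2, 1, 2, 1, 0 and 0 and lost 19. The mean of all probe sets of a gene gave 19, 18, 16, 21, 3, 2, 6, 0, 1 and 0, and leaving out dim probe sets, which removed 19 of the 66 genes, gave 16, 13, 10, 19, 2, 1, 2, 1, 0 and 0. Leaving out 1 array at a time gave 1 to 40, 1 to 23, 0 to 19, 6 to 24, 0 to 28, 0 to 5, 0 to 6, 0 to 33, 0 to 4 and 0 to 2. Where a count moved, the cause was not tested, except that leaving out an array leaves fewer residual degrees of freedom. With the array number as a replicate block the counts were 15, 11, 13, 18, 1, 1, 3, 1, 0 and 0. The numbers were not taken to pair arrays in all populations, since deviations of same-numbered arrays correlated at -0.267 to 0.784 over 10 pairs of populations. The 0.784 was that of P-SSCs with BM-SSCs alone, and whether their arrays were paired is not given. Of 66 passes, 13 held under all 7 of these alternatives other than single left-out arrays. Some passes against CD45+ cells were in genes with several probe sets. Another probe set passed the same way in 4 of 13 such passes for P-SSCs and 5 of 10 for BM-SSCs. It did so in 4 of 9 for CD51+ BMSCs and 7 of 17 for Osx+ cells, and none passed the opposite way. With 2 arrays a population, small differences are not detectable, and probe sets near the array's median have little signal over background.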
